A study of Mus musculus with 8 samples.

Results

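The genes described are 8 Kruppel-like factors, Klf2, Klf3, Klf4, Klf6, Klf7, Klf9, Klf10 and Klf13, chosen by name, of 18193 genes that had a probe set of their own on the array. RNA came from peritoneal macrophages of mice labelled Zc3h12a-/- and of wild-type mice, drawn into the cavity by an injection of thioglycollate. The labelled-knockout cells were collected at 0, 1, 2 and 4 h of lipopolysaccharide (LPS, a component of the bacterial outer membrane and the ligand of TLR4) at 100 ng/ml, and the wild-type cells at the same 4 times. Each of the 8 combinations of genotype and time had 1 Affymetrix array, so no group had a replicate. The product of Zc3h12a, Regnase-1, is an RNase that cleaves the mRNAs of several cytokines. The number of animals behind an array, the age of the mice and the extent of the deletion are not given in the sources used here.

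Kruppel-like factors are transcription factors that bind GC-rich and CACCC sequences through a set of zinc fingers at the carboxyl end, and differ mainly in the amino-terminal part that activates or represses. In mouse macrophages, KLF2 is known to restrain inflammatory gene expression, KLF4 to promote the alternative activation state together with STAT6, and KLF6 to act with NF-kB at inflammatory genes. KLF3 represses through the corepressor CtBP. KLF9, KLF10, KLF13 and their relatives recruit the SIN3 corepressor, and several of the genes themselves respond to hormones, growth factors or serum.

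The sequences just before the start of 4 of these genes are shown because these members gave the genotype differences (Klf9 and Klf4) and an early maximum after LPS (Klf2, Klf4 and Klf6). Each holds the 250 bases before the RefSeq transcript start in GRCm38.p6, printed 5′ to 3′ on the gene's own strand. Capitals mark GGGCGG (the GC box bound by the SP and KLF proteins), CACCC, the core TGACG of the cAMP response element and a MEF2 match, on either strand. The Klf9 window is chr19:23140976-23141225 on the plus strand and the Klf4 window chr4:55532476-55532725 on the minus strand. The Klf2 window is chr8:72318812-72319061 and the Klf6 window chr13:5861239-5861488, both on the plus strand.
Klf9: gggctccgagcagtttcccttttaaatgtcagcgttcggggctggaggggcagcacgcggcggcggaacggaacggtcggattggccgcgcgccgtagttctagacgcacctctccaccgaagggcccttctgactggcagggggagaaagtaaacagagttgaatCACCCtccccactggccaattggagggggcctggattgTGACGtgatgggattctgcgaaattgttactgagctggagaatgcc
Klf4: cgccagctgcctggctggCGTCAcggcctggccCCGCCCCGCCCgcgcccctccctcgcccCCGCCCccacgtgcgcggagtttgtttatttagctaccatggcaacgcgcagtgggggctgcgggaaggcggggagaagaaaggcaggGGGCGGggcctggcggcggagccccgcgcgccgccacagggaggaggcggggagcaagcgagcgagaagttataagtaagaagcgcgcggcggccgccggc
Klf2: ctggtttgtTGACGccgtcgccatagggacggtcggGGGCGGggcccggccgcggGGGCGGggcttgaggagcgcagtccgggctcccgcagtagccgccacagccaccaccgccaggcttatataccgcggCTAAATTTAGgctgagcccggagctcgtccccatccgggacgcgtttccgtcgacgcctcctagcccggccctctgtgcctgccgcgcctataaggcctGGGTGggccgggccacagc
Klf6: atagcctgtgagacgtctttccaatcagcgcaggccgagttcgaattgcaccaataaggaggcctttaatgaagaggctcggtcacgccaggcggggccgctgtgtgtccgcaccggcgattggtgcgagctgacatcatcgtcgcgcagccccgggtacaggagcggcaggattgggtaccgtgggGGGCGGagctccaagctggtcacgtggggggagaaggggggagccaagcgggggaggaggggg

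RefSeq promoter windows were matched for 7 of the 8 members, all but Klf10, and were set against 32851 windows of the same length. The GC box was found in 6 of 7 members, all but Klf9, and in 32.7% of all windows. CACCC was found in 5 of 7, all but Klf4 and Klf6, and in 52.0% of all windows. The core TGACG was found in Klf2, Klf4, Klf9 and Klf13 and in 17.8% of all windows, while the full palindrome TGACGTCA, which contains it, was in 0 of 7 members and 1.55% of windows. Klf2 held a MEF2 match 118 bases before its start, a motif found in 2.92% of windows and in no other member matched. CCAAT was in Klf6, Klf9 and Klf13 (33.8% of windows) and the AP-1 motif TGANTCA in Klf9 alone (6.75% of windows). TATAAA (12.4% of windows), the NF-kB motif (3.90%), the CArG box (1.47%) and AGAACA (16.1%) were in 0 of 7. The members' windows were 59.2% to 78.4% G and C, against a median of 52.4% over all windows. These matches describe letters in a short window.

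Values are the deposited log2 values, in which 1 unit is a doubling. The array medians lay between 3.14 and 3.21, and background, taken as the brightest of 27 unspiked bacterial control probe sets, between 2.96 and 3.26. Of the 30 probe sets of the 8 genes, 26 passed the filter and were fitted, and 21 lay above background on all arrays. A gene is given by its brightest probe set, and the others are named where they differ. The values of the brighter Zc3h12a probe set, in order of time, were 6.73, 7.70, 8.75 and 8.50 in the labelled knockout and 6.12, 8.02, 8.87 and 8.57 in wild type. The labelled knockout was higher at 0 h and lower, by 0.32 or less, at the later times, and the difference over the times was 0.02 (SE 0.16, limma adjusted p = 0.941). Where these probes lie relative to the deleted part is not known, so they do not check the label. All 9 general macrophage markers on the array were above background throughout, with a summed log2 level of 15.04 to 15.23 in the labelled knockout and 15.05 to 15.19 in wild type. That sum is carried by the brightest of them. Singly, 2 of the 9 were called higher and 1 lower in the labelled knockout, and 6 were not called. In these bulk samples, fewer cells of a type and less RNA per cell cannot be told apart.

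Between the genotypes, Klf9 and Klf4 were higher in the labelled knockout over the 4 times, by 3.38-fold and 2.08-fold, and the other 6 members did not pass the test. The test was limma's moderated test with time as a block, adjusted over the 12540 genes that passed a filter on low values, and all 8 members passed that filter. Of all genes tested, 4.75% were higher and 8.72% lower in the labelled knockout at an adjusted p under 0.05. The members' median difference was 0.19, against -0.04 over all genes. The share of higher and lower calls depends on the scaling: cyclic loess gave 5.61% higher and 6.44% lower, and centring on housekeeping genes 3.86% higher and 13.4% lower.

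Klf9 is a repressor whose gene is induced by glucocorticoids and thyroid hormone. In the labelled knockout it read 11.01, 10.09, 10.54 and 10.26 at 0, 1, 2 and 4 h. It read 9.84, 9.08, 8.46 and 7.49 in wild type. Every labelled-knockout array was thus above every wild-type array, and the gap was wider at 2 and 4 h than at 0 and 1 h. The means were 10.47 and 8.72, a difference of 1.76 (SE 0.29, limma adjusted p = 0.0149). The gap at the single times was 1.17, 1.01, 2.08 and 2.76, each from 2 arrays.

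The other Klf9 probe sets that were fitted ran the same way. The second read 8.25, 7.78, 7.95 and 7.86 in the labelled knockout, against 7.05, 6.63, 6.19 and 5.47 in wild type, a difference of 1.63 (SE 0.21, limma adjusted p over all probe sets 0.0070). The third read 7.21, 6.73, 7.24 and 7.23, against 5.65, 5.23, 4.71 and 3.93 in wild type, a difference of 2.23 (SE 0.30, limma adjusted p = 0.0079). In both, all labelled-knockout arrays again lay above all wild-type arrays. The fourth probe set, with lower values, read 3.63, 3.90, 4.55 and 4.68 in the labelled knockout, against 3.50, 3.30, 3.14 and 3.09 in wild type, a difference of 0.93 (SE 0.24) that missed the threshold (limma adjusted p = 0.0615). Its labelled-knockout values were higher at 2 and 4 h than at 0 h, whereas the brightest probe set read lower there. The fifth, above background on 4 of 8 arrays, gave 0.24, and 2 more lay too near background to be fitted.

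Klf4, a promoter of alternative activation, read 7.38, 7.85, 6.36 and 6.37 in the labelled knockout and 5.89, 6.40, 5.51 and 5.93 in wild type. The labelled-knockout array was higher at each time, by 1.49, 1.45, 0.85 and 0.43, and the ranges of the genotypes touched only where the labelled knockout at 2 and 4 h met wild type at 1 h. The means were 6.99 and 5.93, a difference of 1.06 (SE 0.19, limma adjusted p = 0.0190). The second Klf4 probe set read 6.23, 6.39, 4.48 and 4.87 in the labelled knockout and 4.93, 4.95, 3.82 and 4.55 in wild type, a difference of 0.93 (SE 0.19, limma adjusted p = 0.0320). For Klf9 the gap was thus smaller at 0 h than at 4 h, and for Klf4 larger.

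These 2 calls rest on few arrays. Without either 2 h array, Klf9 gave 1.65 at a limma adjusted p of 0.0630, and without either 0 h, 1 h or 2 h array Klf4 gave adjusted p values of 0.0774, 0.0501 and 0.0571. Markers of other cell types or states moved with genotype, and their part in the result was not tested. The summed log2 level of resident peritoneal macrophage markers (9 of 10 above background on all arrays) was 13.45 to 13.64 in the labelled knockout and 11.31 to 11.76 in wild type. Of these 10, 9 were called higher and 0 lower in the labelled knockout. Of 7 mesothelial and stromal markers tested 6 were lower and 0 higher, and the list (6 of 10 above background on all arrays, with Msln, Krt18 and Krt19 at background) summed to 8.86 to 9.48 in the labelled knockout, against 10.47 to 10.90 in wild type. Monocyte markers (3 of 4 above background on all arrays) summed to 13.80 to 13.83 in the labelled knockout, against 9.92 to 10.81 in wild type, with Chil3 at 13.73 to 13.83 and 9.77 to 10.05. There Chil3 and Vcan were called higher and Plac8 lower, at -0.93. B cell markers (2 of 6, with Pax5 at background on all arrays) summed to 8.88 to 9.54, against 6.51 to 6.64 in wild type. Ighm alone was called, at 3.68, and Cd79a, Ms4a1 and Blk gave -0.33, 0.18 and -0.05 without passing. T cell markers (2 of 6, with Cd3g and Cd5 at background) summed to 11.50 to 12.19 in the labelled knockout and 11.46 to 12.33 in wild type, mostly Il7r, and Cd3e alone was called, at 0.89. Neutrophil markers (3 of 7, with Cxcr2 and Elane at background) summed to 10.61 to 11.97 and 10.44 to 11.82, mostly S100a8, and S100a9 alone was called, at 3.12. Eosinophil and mast cell markers (2 of 7, with Prg2, Mcpt4 and Fcer1a at background) summed to 6.20 to 6.55 and 6.23 to 6.90, and Cpa3 alone was called, at -1.44. Endothelial markers (2 of 8, with Pecam1, Emcn and Tie1 at background) summed to 8.26 to 9.12 and 8.39 to 9.32, mostly Vwf, and 0 of 2 tested were called.

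**Figure D1:**
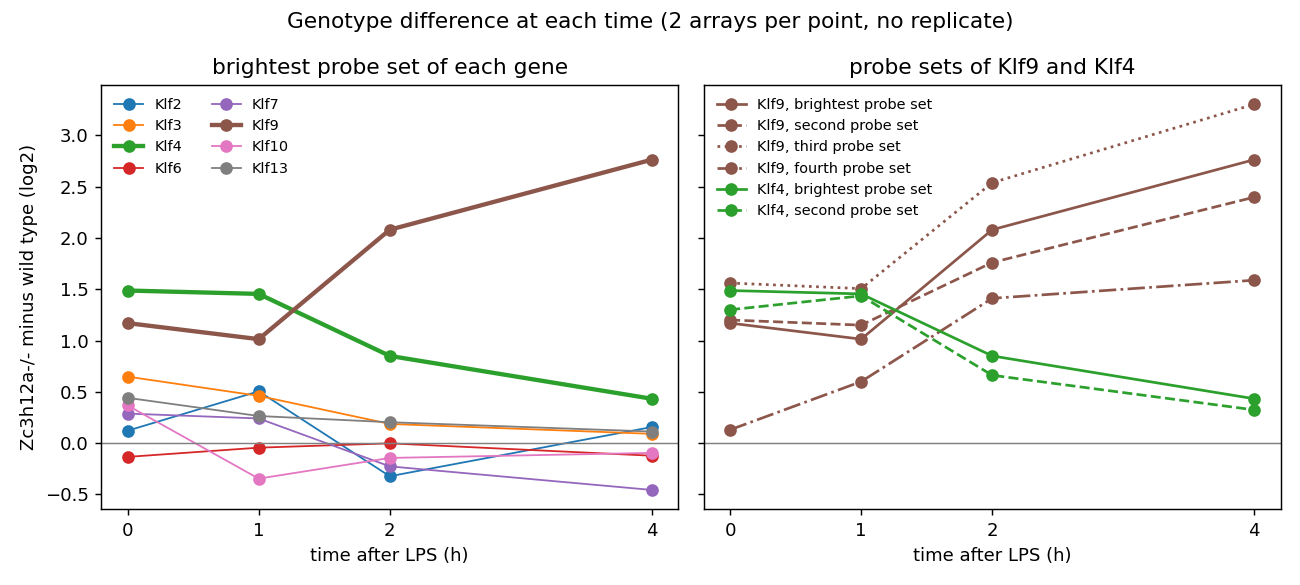
Zc3h12a-/- minus wild type in log2 units against hours after LPS, each point from 2 arrays with no replicate; the left panel shows the brightest probe set of the 8 genes and the right panel the probe sets of Klf9 and Klf4. The Klf9 line reaches 2.76 at 4 h, the Klf4 line stands at 1.49 at 0 h and 0.43 at 4 h, and most other lines lie nearer to 0.

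Among the other 6, Klf3 and Klf13 read higher in the labelled knockout at every time without passing the test. Klf3 differed by 0.65, 0.46, 0.19 and 0.09 at 0, 1, 2 and 4 h, 0.35 over the times (SE 0.11, limma adjusted p = 0.0959). Klf13 differed by 0.44, 0.26, 0.20 and 0.11, 0.26 over the times (SE 0.09, limma adjusted p = 0.102). Both gaps were largest at 0 h. Other probe sets of these genes disagreed in direction: the second Klf13 probe set gave -0.63 (SE 0.19, limma adjusted p = 0.0887) and the other 5 fitted Klf3 probe sets between -0.42 and -0.04. Klf6 gave -0.08, Klf7 -0.04, Klf10 -0.05 and Klf2 0.11, with limma adjusted p values from 0.520 to 0.878.

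An interaction term asked whether LPS altered the gap between the genotypes, and 0 of 12540 genes passed in limma (0%), with 434 at an unadjusted p under 0.05 and 15 called with the trend and robust settings. Of the 8 members 0 passed under either setting, and 1, Klf10 at -0.56 (SE 0.21), had an unadjusted p under 0.05 (0.0394). The term was 0.78 for Klf9 (SE 0.66, unadjusted p = 0.286) and -0.58 for Klf4 (SE 0.41). A linear trend of the genotype difference over hours, added after the values were seen, was 0.45 per h for Klf9 (SE 0.09) and -0.29 per h for Klf4 (SE 0.06). It was -0.20 per h for Klf7 and -0.14 per h for Klf3. The limma adjusted p values were 0.557 or higher, and 0 of the 12540 genes passed. The widening gap for Klf9 and the narrowing gap for Klf4 are therefore values of single arrays and not called changes.

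After LPS the 8 genes followed different courses in time. At 1 h, Klf6, Klf7 and Klf2 rose. At 2 h, Klf7, Klf3 and Klf6 were above 0 h and Klf10 was below. At 4 h, Klf7 and Klf6 remained above 0 h, while Klf9, Klf10, Klf2 and Klf13 had fallen. These comparisons took both genotypes together, with genotype as a block, and all 3 times share the same 0 h arrays.

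The background of calls was 3.85% of genes higher and 6.62% lower at 1 h, where 3 members rose and 0 fell. It was 12.0% higher and 29.8% lower at 2 h, where 3 rose and 1 fell, and 14.4% higher and 29.4% lower at 4 h, where 2 rose and 4 fell. The members' median difference was 0.43, -0.35 and -0.62 at the 3 times, against -0.09, -0.16 and -0.12 over all genes. With cyclic loess the background was 4.26% higher and 4.22% lower at 1 h, 14.7% and 22.4% at 2 h, and 17.2% and 23.9% at 4 h. Centring on housekeeping genes moved the median of all genes to 0.04, 0.04 and 0.16, and gave 4.40% higher and 3.61% lower at 1 h, 19.3% and 20.6% at 2 h, and 26.6% and 19.3% at 4 h. No called member changed sign under either scaling, and centring on housekeeping genes added Klf3 at 4 h (0.55, limma adjusted p = 0.0362).

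**Figure D2:**
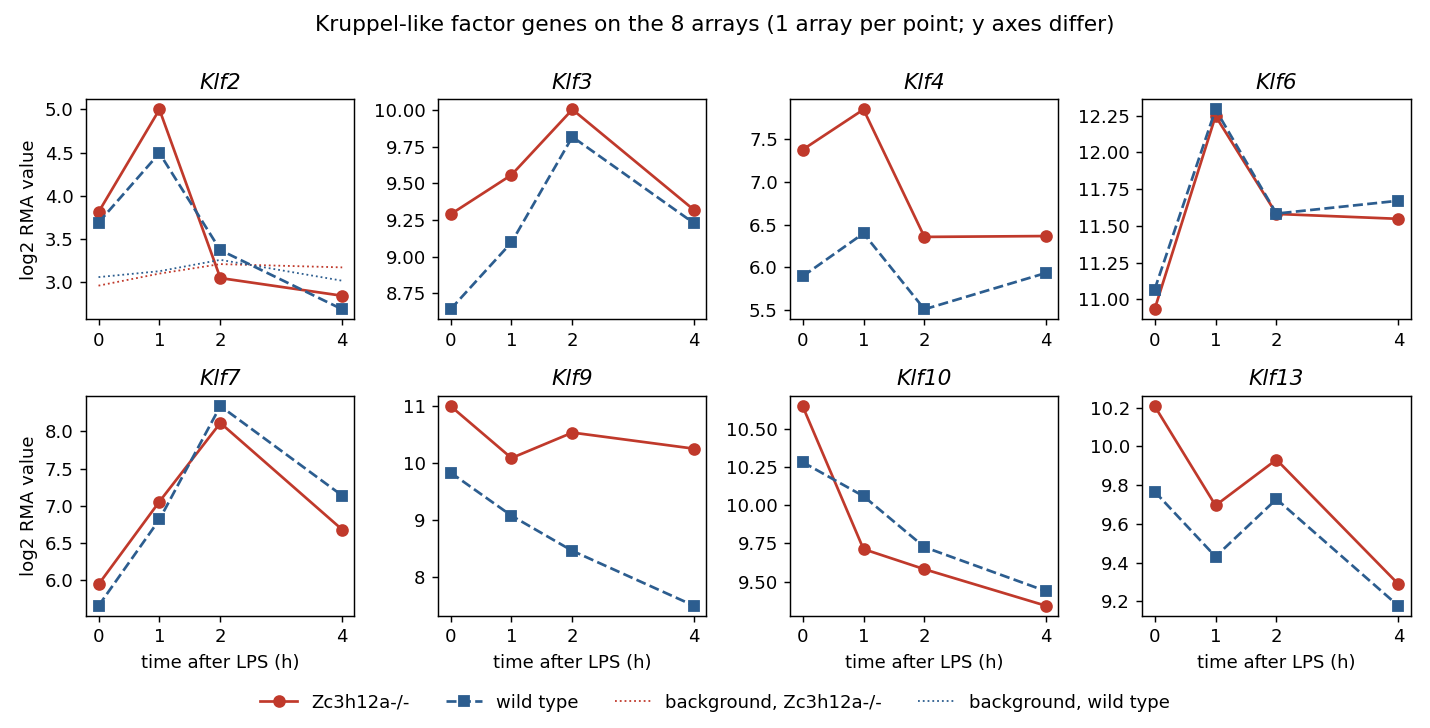
Log2 values of the brightest probe set of each of the 8 genes against hours after LPS, 1 array per point, for Zc3h12a-/- and wild type; dotted lines in the Klf2 panel give each array's background, and the y axes differ. Klf6 is highest at 1 h and Klf7 and Klf3 at 2 h in both genotypes, and the Klf9 lines are farthest apart at 4 h, at 10.26 and 7.49.

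Klf6, an activator that works with NF-kB in macrophages, read 10.93, 12.25, 11.58 and 11.55 in the labelled knockout, in order of time, and 11.07, 12.29, 11.58 and 11.67 in wild type. Both genotypes had their highest value at 1 h and stayed above 0 h afterwards. The difference from 0 h was 1.27 at 1 h (SE 0.11, limma adjusted p = 0.0010), then 0.58 at 2 h and 0.61 at 4 h (limma adjusted p = 0.0060 and 0.0041). Its other 4 probe sets rose by 1.66 to 2.64 at 1 h, and all were called at all 3 times. The fall between 1 and 2 h, of -0.69, passed the test as well (limma adjusted p = 0.0068). The call at 2 h ended when the labelled knockout at 0 h or 2 h was left out (limma adjusted p = 0.0503 and 0.0506).

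Klf2, which restrains macrophage activation, read 3.81, 5.0, 3.05 and 2.84 in the labelled knockout and 3.69, 4.49, 3.37 and 2.69 in wild type. It lay above background on 5 of 8 arrays, and at or below background in the labelled knockout at 2 h and in both genotypes at 4 h. Klf2 rose by 1.00 at 1 h (SE 0.19, limma adjusted p = 0.0263), with means of 4.75 and 3.75. Between 1 and 2 h it fell by 1.54 (SE 0.19, limma adjusted p = 0.0037), with 1 of the 2 arrays at 2 h above background. At 4 h it was at least 1.58-fold lower than at 0 h, a bound set by background (limma adjusted p = 0.0071, and 0.0515 without the wild-type 4 h array). The rise at 1 h lost its call on leaving out either 0 h array, either 4 h array or the 1 h array of the labelled knockout (0.74, limma adjusted p = 0.102).

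Klf4 read highest at 1 h in both genotypes, but its difference from 0 h, 0.49 (SE 0.27), did not pass (limma adjusted p = 0.324). Between 1 and 2 h it fell by 1.19 (SE 0.27, limma adjusted p = 0.0244), with means of 5.93 at 2 h and 7.12 at 1 h. That call was lost on leaving out 1 of 3 arrays, wild type at 2 h or the labelled knockout at 1 h or 2 h (limma adjusted p = 0.0721, 0.143 and 0.144). Against 0 h the brightest probe set gave -0.71 at 2 h and -0.49 at 4 h, which did not pass. The second probe set did pass at both times, at -1.42 (SE 0.27, limma adjusted p = 0.0080) and -0.87 (SE 0.27, limma adjusted p = 0.0447).

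Over all genes, 7.71% were higher and 14.6% lower at 2 h than at 1 h, and 11.3% were higher and 9.72% lower at 4 h than at 2 h. Of the members, Klf7 and Klf3 were higher and Klf2, Klf4 and Klf6 lower at 2 h than at 1 h. Klf7, Klf3 and Klf13 were lower at 4 h than at 2 h, and 0 were higher. Both Klf7 steps lost their call when wild type at 2 h was left out (limma adjusted p = 0.0506 and 0.05003). The median of the members was -0.16 for the first of these steps and -0.52 for the second, against -0.06 and 0.00 over all genes.

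Klf7, the closest relative of Klf6 and best known from developing neurons in mice, read 5.95, 7.06, 8.11 and 6.68 in the labelled knockout and 5.66, 6.82, 8.34 and 7.14 in wild type. In both genotypes it was highest at 2 h and still above 0 h at 4 h. It rose by 1.14 at 1 h (SE 0.20, limma adjusted p = 0.0198), by 2.42 at 2 h (SE 0.20, limma adjusted p = 0.0003) and by 1.11 at 4 h (SE 0.20, limma adjusted p = 0.0054). The 2 h value was a 5.37-fold rise, the largest against 0 h among the members' brightest probe sets. The other 3 probe sets rose by 1.09 to 1.496 at 1 h and 1.86 to 2.71 at 2 h, and all were called. The call of the brightest probe set at 1 h was lost without any 0 h or 1 h array (limma adjusted p = 0.0537 to 0.152).

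Klf3, a repressor that recruits CtBP, read 9.29, 9.56, 10.004 and 9.32 in the labelled knockout and 8.64, 9.10, 9.82 and 9.23 in wild type. It was highest at 2 h in both genotypes, by 0.95 over 0 h (SE 0.16, limma adjusted p = 0.0047), and the difference at 4 h, 0.31, did not pass. The step to 2 h from 1 h was 0.58 and that to 4 h from 2 h was -0.64, with limma adjusted p values of 0.0460 and 0.0357. Each of these 2 steps lost its call on leaving out any array of its own 2 times (limma adjusted p = 0.114 to 0.210 and 0.0573 to 0.195). The second Klf3 probe set rose by 1.81 at 2 h (SE 0.32, limma adjusted p = 0.0059) and by 1.37 at 4 h (SE 0.32, limma adjusted p = 0.0147). The remaining fitted probe sets gave 0.73, 0.70, 0.37 and 0.45 at 2 h and did not pass (limma adjusted p = 0.106 to 0.226). The first of these moved by -0.01 in the labelled knockout and by 1.46 in wild type.

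Klf10, a TGF-beta-inducible repressor, read 10.65, 9.71, 9.58 and 9.34 in the labelled knockout and 10.28, 10.06, 9.73 and 9.44 in wild type. Each later array was below the one before in both genotypes. It fell by 0.81 at 2 h (SE 0.18, limma adjusted p = 0.0126) and by 1.08 at 4 h (SE 0.18, limma adjusted p = 0.0035), while -0.58 at 1 h did not pass. The call at 2 h ended when the labelled knockout at 0 h (-0.53, limma adjusted p = 0.0672) or at 2 h was left out.

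Klf13, known in T cells as a late activator of Ccl5, read 10.21, 9.69, 9.93 and 9.29 in the labelled knockout and 9.77, 9.43, 9.73 and 9.18 in wild type. Its values dipped at 1 h, were higher again at 2 h and were lowest at 4 h in both genotypes. At 4 h it fell by 0.75 (SE 0.12, limma adjusted p = 0.0030), with means of 9.23 and 9.99, and between 2 and 4 h by 0.60 (limma adjusted p = 0.0174). The step between 2 and 4 h lost its call without any of 3 arrays, either 2 h array or the labelled-knockout 4 h array (limma adjusted p = 0.0805 to 0.106). The second probe set read 4.37, 4.00, 3.44 and 3.50 in the labelled knockout, against 4.43, 4.46, 4.73 and 4.20 in wild type, so its lowest labelled-knockout value was at 2 h. It gave -0.55 at 4 h, which did not pass (limma adjusted p = 0.157).

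Klf9 fell by 1.55 at 4 h in the fit over both genotypes (SE 0.41, limma adjusted p = 0.0236), with unequal sizes that the interaction term did not call: 4 h minus 0 h was -0.75 in the labelled knockout and -2.34 in wild type. Wild type was lower at each successive time, while the labelled-knockout arrays stayed within 10.09 to 11.01. The call ended when wild type at 4 h was left out (-0.88, limma adjusted p = 0.128) or wild type at 0 h (-1.16, limma adjusted p = 0.165). The second Klf9 probe set fell by 0.99 (SE 0.30, limma adjusted p = 0.0384), the third gave -0.85 without passing, and the fourth gave 0.32.

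**Figure D3:**
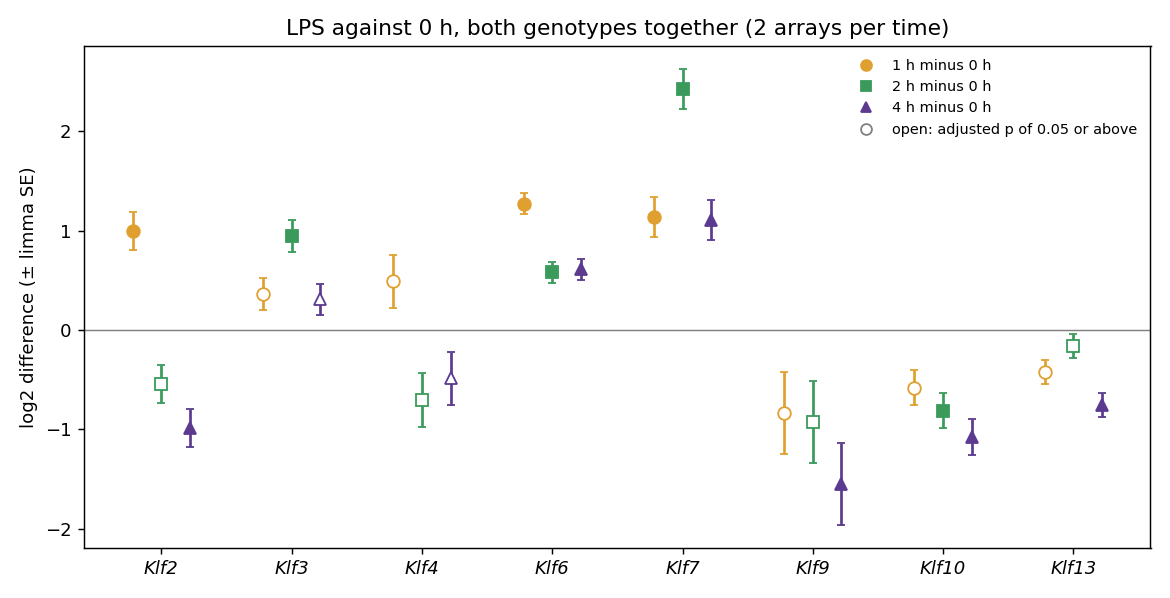
Log2 difference from 0 h at 1, 2 and 4 h of LPS for each of the 8 genes, from the fit over both genotypes (2 arrays per time); bars are limma's SE and open symbols mark an adjusted p of 0.05 or above. Klf7 stands highest at 2 h, at 2.42, and Klf9, Klf10, Klf2 and Klf13 have filled symbols below 0 at 4 h.

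Of 18 other genes of the KLF and SP families, 15 were on the array and 10 passed the filter. Klf16 fell at 2 and 4 h, by 0.70 (SE 0.11, limma adjusted p = 0.0040) and 0.64 (SE 0.11, limma adjusted p = 0.0049). Its values were 5.85, 5.15, 5.15 and 5.20 in the labelled knockout and 5.85, 5.38, 5.14 and 5.23 in wild type, so most of the drop had come by 1 h. The call at 1 h (-0.59, limma adjusted p = 0.0260) was lost with cyclic loess (0.0968) and with housekeeping centring (0.0666). Sp1, the founding GC-box factor, rose by 0.75 at 2 h and 0.77 at 4 h (SE 0.14, limma adjusted p = 0.0063 and 0.0047), and Sp3 fell by 0.73 at 2 h (SE 0.14, limma adjusted p = 0.0073). With cyclic loess 1 rather than 2 of the 10 genes fell at 2 h, and with housekeeping centring 2 fell. Klf11, a relative of Klf10, rose by 0.47 at 4 h (SE 0.12, limma adjusted p = 0.0233). Between genotypes Klf12 alone of the 10 passed, at 0.49 (SE 0.11, limma adjusted p = 0.0398), but it lay above background on 1 of 4 wild-type arrays and the call was lost with housekeeping centring and on leaving out any array (adjusted p of up to 0.128). Klf14, Klf17, Sp4, Sp5 and Sp6 passed in none of the 4 comparisons, and of these only Sp4 was above background on all arrays.

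A list of 12 genes held the kinase cascade, transcription factors and coactivators that drive Klf2 and Klf4. Of these, 0 rose and 2 fell at 1 h, and 0 rose and 8 fell at 2 h. At 4 h 1 rose and 9 fell. The list medians were -0.18, -1.05 and -1.09, against -0.09, -0.16 and -0.12 over all genes, of which 6.62%, 29.8% and 29.4% fell. Mapk7, which encodes the kinase ERK5, read 5.70, 4.63, 3.94 and 4.46 in the labelled knockout and 6.22, 5.01, 4.37 and 5.0 in wild type, and fell by 1.14, 1.81 and 1.23 at 1, 2 and 4 h (SE 0.11). Mef2c, a MADS-box factor activated by ERK5, read 6.77, 6.82, 4.62 and 4.12 in the labelled knockout and 7.46, 7.56, 5.64 and 5.16 in wild type. It gave 0.07 at 1 h, which did not pass, and fell by 1.99 and 2.47 at 2 and 4 h (SE 0.13). Foxo3 fell by 3.11 and 2.84 and Map3k3, the kinase at the head of the ERK5 cascade, by 1.25 and 1.46. Between genotypes 0 of the 12 were higher and 3 lower, among them Mef2c at -0.87 (SE 0.09, limma adjusted p = 0.0037) and Mapk7 at -0.47 (SE 0.08, limma adjusted p = 0.0136), while Klf4 itself was higher. The Mapk7 genotype call was lost on leaving out any of 6 arrays, with an adjusted p of up to 0.0695.

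Among 11 tested corepressors and partners of the family, 1 rose and 0 fell at 1 h, 4 rose and 2 fell at 2 h, and 5 rose and 4 fell at 4 h. With either other scaling, 1 rather than 2 fell at 2 h and 2 rather than 4 fell at 4 h. Sap30, a subunit of the SIN3 complex, rose by 2.08 and 2.14 at 2 and 4 h (SE 0.13). Its scaffold gene Sin3a fell by 1.20 and 0.94 (SE 0.15), whereas the paralog Sin3b rose by 0.57 and 0.68 (SE 0.10). Cebpb rose by 1.36, 1.21 and 1.56 at the 3 times (SE 0.23). Between genotypes 0 were higher and 2 lower, Sin3a at -0.48 and Sin3b at -0.32 (limma adjusted p = 0.0384 and 0.0373), and these calls were lost with cyclic loess (0.0607 and 0.0630).

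Of 8 genes for enzymes that mark KLF proteins for degradation or spare them, 0 rose and 1 fell at 1 h, 1 rose and 4 fell at 2 h, and 1 rose and 3 fell at 4 h. With either other scaling, 2 rose and 3 fell at 2 h. Wwp1, a ubiquitin ligase for KLF2, read 9.21, 8.80, 7.89 and 5.47 in the labelled knockout and 9.93, 9.58, 8.86 and 6.78 in wild type. It fell by 3.45 at 4 h (SE 0.16) and was lower in the labelled knockout by -0.94 over the times (SE 0.12, limma adjusted p = 0.0058), the only one of the 8 called between genotypes. Fbxo32, an F-box gene, read 7.77, 7.06, 3.27 and 2.75 in the labelled knockout and 8.05, 6.72, 2.90 and 3.27 in wild type, near background from 2 h on, and its call at 1 h (-1.02, limma adjusted p = 0.0474) was lost with both other scalings. Itch gave -0.21 between genotypes and did not pass. Fbxw7, a receptor subunit of an SCF ligase, fell by 1.52 and 0.94 at 2 and 4 h (SE 0.18), and the deubiquitinase gene Usp10 rose by 0.63 and 0.50 (SE 0.16).

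**Figure D4:**
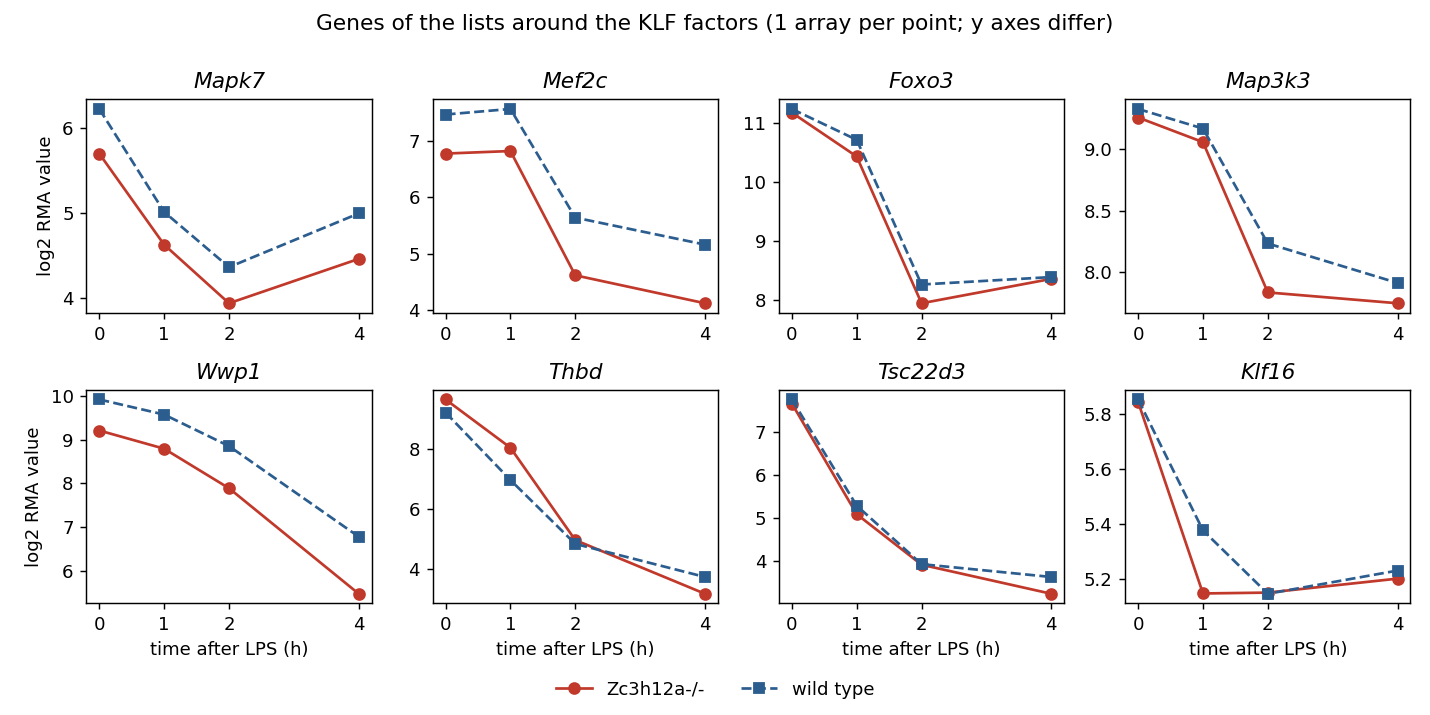
Log2 values of 8 genes from the lists around the KLF factors against hours after LPS, 1 array per point, for Zc3h12a-/- and wild type; the y axes differ. Mapk7, Mef2c and Wwp1 lie lower in Zc3h12a-/- at every time, and the Thbd and Tsc22d3 lines descend in both genotypes.

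Of 18 tested genes reported as targets of KLF2 or KLF4, 6 rose and 1 fell at 1 h, 7 rose and 2 fell at 2 h, and 8 rose and 6 fell at 4 h. With either other scaling, 3 rather than 6 fell at 4 h. The list was not split by whether a factor activates or represses the gene, so these counts do not measure factor activity. Thbd (thrombomodulin), which KLF2 activates in endothelium, read 9.64, 8.03, 4.97 and 3.18 in the labelled knockout and 9.20, 6.96, 4.84 and 3.74 in wild type, a fall of 5.96 at 4 h (SE 0.35). Its labelled-knockout value at 4 h lay near that array's background of 3.17. Ccl2, a chemokine gene, rose by 3.22, 3.73 and 4.42 at the 3 times (SE 0.11), and Ptgs2, which encodes cyclooxygenase, by 7.15, 7.57 and 7.49 (SE 0.38). The cell cycle inhibitor Cdkn1a rose by 2.24, 2.35 and 1.97 (SE 0.11). Between genotypes 5 were higher and 1 lower, and the smallest p values were those of Retnla and Arg1, genes of alternative activation, at 4.76 (SE 0.08) and 2.72 (SE 0.11).

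Klf9 is itself known to be induced by glucocorticoids, through their receptor. Of 12 other glucocorticoid-induced genes, 5 rose and 1 fell at 1 h, 6 rose and 2 fell at 2 h, and 4 rose and 2 fell at 4 h. As background, Zfp36 and Nfkbia are induced by LPS as well. Tsc22d3, which encodes the glucocorticoid-induced leucine zipper, fell by 2.51, 3.78 and 4.26 (SE 0.13), while Zfp36 rose by 3.88, 1.98 and 2.03 (SE 0.15), Nfkbia by 2.41, 2.27 and 2.13 (SE 0.11) and Errfi1 by 4.73 and 3.71 at 1 and 2 h (SE 0.17). Tsc22d3 read 3.24 in the labelled knockout at 4 h, near that array's background of 3.17. Between genotypes 3 were higher and 0 lower, among them Mt2 at 0.68 (SE 0.11, limma adjusted p = 0.0148) and Fkbp5 at 0.46 (SE 0.08, limma adjusted p = 0.0164). Tsc22d3 gave -0.17 there and did not pass.

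Of 9 tested immediate targets of TGF-beta, the signal that induces Klf10, 3 rose and 0 fell at 1 h, 4 rose and 1 fell at 2 h, and 5 rose and 1 fell at 4 h. Pmepa1 rose by 2.84 and 4.01 at 2 and 4 h (SE 0.16), Skil by 1.24, 0.87 and 0.68 (SE 0.14) and Junb by 3.99, 2.42 and 1.92 (SE 0.17). Ski fell by 1.86 and 2.06 at 2 and 4 h (SE 0.15). Between genotypes Pmepa1 was higher at 1.38 (SE 0.11, limma adjusted p = 0.0014) and Id3 lower at -1.53 (SE 0.38, limma adjusted p = 0.0470), the last lost with cyclic loess (0.0612). Id3 read 5.44, 6.25, 3.41 and 2.71 in the labelled knockout, the last below background, and 5.40, 8.17, 5.28 and 5.09 in wild type, so its gap lay in the arrays after LPS.

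The early-response zinc finger and other early genes gave a time course to set Klf2, Klf4 and Klf6 beside. Of 12, 10 rose and 0 fell at 1 h, with a list median of 3.48, and between 1 and 2 h 0 rose and 10 fell. Egr1 rose by 5.56 at 1 h and 1.89 at 2 h (SE 0.29) and gave -0.10 at 4 h. Nr4a1 rose by 4.91 at 1 h (SE 0.15) and gave 0.43 at 2 h, which did not pass (limma adjusted p = 0.0620). Ier3 rose by 3.68, 2.27 and 2.10 at the 3 times (SE 0.12), and Junb, named above, was also among the 4 of smallest p. Ier3 was the only one of the 12 called between genotypes, higher by 0.62 in the labelled knockout (SE 0.09, limma adjusted p = 0.0087), while Fosb gave 0.34 (limma adjusted p = 0.0521).

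For each member, the genes whose log2 values followed it most closely over the 8 arrays were found by Pearson's r, given as a description. These points share genotype and time. Klf6 was closest to Zfp36 (r = 0.991), which encodes an mRNA-destabilising protein, and Rasgef1b (0.985), and Klf7 to Sertad2 (0.986) and Pip5k1a (0.980). Klf10 was closest to Echdc3 (0.982) and Ppcdc (0.975), Klf3 to Slco4a1 (0.981) and Usp14 (0.971), and Klf4 to Pgap4 (0.974) and 1700022A21Rik (0.968). Klf2 was closest to Cdc6 (0.970) and Vegfa (0.961), Klf9 to St13 (0.967) and Rps6ka3 (0.961), and Klf13 to Zfp326 (0.964) and Vapa (0.961). With 12540 genes and 8 arrays, values of this size occurred for every member. The 2 genes closest to Klf4 lay at or near background in wild type, Pgap4 at 2.80 to 3.12 and 1700022A21Rik at 2.84 to 3.01. Above background, 1700022A21Rik read only in the labelled knockout at 0 and 1 h, where Klf4 was also highest.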

How the data were processed

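The deposited table holds log2 values made with RMA (background correction, quantile normalization and probe summary), per the submitters' processing notes, with no version stated in the labels used. It has 45101 probe sets on 8 arrays. Quantile normalization hides a change in total mRNA. Of the probe sets, 34945 had 1 gene symbol in the platform annotation after control probe sets were removed, 932 had several and 9211 were unnamed here. A gene took its probe set of highest mean, and was kept when its second-highest array reached 3.16, the median of all values, which kept 12540 of 18193 genes.

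Differences were fitted with limma 3.58.1 in R 4.3.3 (lmFit, eBayes): genotype with time as a block, LPS times and steps with genotype as a block (3 residual degrees of freedom), and the interaction of genotype and LPS (2). P-values were adjusted by Benjamini-Hochberg over all genes, or over all probe sets for single probe sets, with a threshold of 0.05. Errors are moderated SE. With 1 array a group, the error behind each p-value comes from departures from additive effects of genotype and time, and precision is limited by having few arrays. The p-values hold no known variation between animals or cell preparations. Genotype therefore cannot be told apart from a difference between the preparations of the 2 genotypes. The fits were tested on simulated data. Background per array is the highest of 27 unspiked bacterial control probe sets, a rule chosen with the data known. Control probe sets at the 3′ and 5′ ends of Actb and Gapdh give a guide to RNA integrity. For Actb, 3′ minus 5′ was 3.11, 2.61, 2.52 and 2.30 in the labelled knockout, in order of time. Wild type gave 2.64, 2.35, 2.43 and 2.16. For Gapdh these were 3.31, 2.95, 3.04 and 2.90, against 3.01, 2.99, 3.16 and 2.98. Only Actb was higher in the labelled knockout at every time. The part of RNA integrity in the results was not tested.

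The members and lists were chosen with earlier results of these data known. Genes named were all members on every probe set, the tested genes of the KLF and SP families, from each other list the 4 of smallest p over the LPS comparisons and 2 in the genotype difference, and the 2 most alike genes of each member. Promoter windows are RefSeq's in GRCm38.p6. Alternatives are described in the closing section.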

Additional observations from a re-analysis of the deposited data

How the results depend on the processing

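The 8 genes gave 56 results over 7 comparisons, of which 23 were called, and these were recomputed under 16 alternatives: cyclic loess, centring on 9 housekeeping genes, a filter at 4.83 or none, the mean of a gene's probe sets, no probe sets marked as matching several transcripts, limma's trend and robust settings, no block, and each array left out. All 23 called results kept their sign in these 16, and 9 kept their call in all of them. Several alternatives could not change a sign. The filters, the trend and robust settings and the fit without a block leave the size of a difference unchanged. No member's brightest probe set was among those marked as matching several transcripts. For the genotype difference, leaving out either array of a time gives the same value. Of the 33 not called, 8 passed under at least 1 alternative. The cause of these changes was not tested.

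The genotype difference, called for 2 members, was called for 0 without the block and for 0 to 2 with an array left out (Klf9 adjusted p = 0.205 and Klf4 0.398 without the block). With trend and robust settings Klf9 missed the threshold (0.0627) while Klf3 (0.0253) and Klf13 (0.0233) passed. The 1 h count of 3 was 5 with trend and robust settings and 1 to 3 with an array left out. With an array left out, the 2 h count of 4 was 2 to 5 and the 4 h count of 6 was 5 to 6. The step between 1 and 2 h, 5 members, gave 3 without the block and 2 to 5 with an array left out, and the step between 2 and 4 h, 3 members, gave 1 with the mean of probe sets, 1 without the block and 0 to 3 with an array left out. The interaction count stayed at 0. It could not be fitted without a 0 h array, and Klf2 has no value under the filter at 4.83.

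Klf9 at 4 h also lost its call with the mean of probe sets (-0.44, adjusted p = 0.171), without the block (0.328) and with eBayes set to trend and robust (0.0992). Klf4 at 2 h passed with the mean of probe sets (-1.06, adjusted p = 0.0188). Of 44 sign changes, 43 concern results that were not called, the other is Klf9 at 4 h on a dim probe set, and 23 come from single probe sets, 0 of them past the threshold.

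For the genotype difference, leaving out an array gave -0.015 to 0.26 for Klf2, -0.15 to 0.10 for Klf7 and -0.20 to 0.042 for Klf10. Klf7 gave 0.045 with cyclic loess, Klf3 -0.093 and Klf13 -0.17 with the mean of probe sets, the Klf3 probe sets -0.42, -0.18, -0.23, -0.037 and -0.11, and a Klf13 probe set -0.63. For LPS against 0 h, single probe sets gave -0.047 at 1 h and -0.046 at 4 h for Klf3, and 0.042 and 0.087 at 1 h, 0.28 at 2 h and 0.32 at 4 h for Klf9, and Klf13 gave 0.014 at 2 h with housekeeping centring. Between 1 and 2 h, Klf9 gave -0.58 to 0.41 with an array left out and 0.24 on a probe set, and a Klf13 probe set -0.14. Between 2 and 4 h, leaving out an array gave -0.20 to 0.63 for Klf4, -0.022 to 0.076 for Klf6 and -1.30 to 0.046 for Klf9. Klf6 there gave -0.035 with the mean of probe sets and -0.060 and -0.19 on probe sets, and Klf9 probe sets 0.040 and 0.067. For the interaction, Klf2 gave -0.20 to 0.21 with an array left out, and probe sets gave 0.082, 0.019 and 0.31 for Klf3, 0.18 for Klf7 and -0.48 for Klf9.

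Among the list genes named, these calls were lost on leaving out an array (highest adjusted p): Klf16 at 1 h (0.153), Sp1 (0.0546) and Sp3 (0.0547) at 2 h, Klf11 at 4 h (0.168), Cebpb at 1 h (0.112), Usp10 at 2 h (0.160) and 4 h (0.307), Fbxw7 at 4 h (0.0565), Skil at 4 h (0.0673), and between genotypes Sin3a (0.122), Sin3b (0.136), Mt2 (0.0598), Fkbp5 (0.0745) and Id3 (0.151).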
